A study of Homo sapiens with 6 samples.

Results

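Colonocyte surface and brush border markers are 10 of the 58884 Ensembl genes in the deposited table: GPA33, LGALS4, PHGR1, CEACAM1, CEACAM5, CEACAM6, VIL1, CDHR5, FABP1 and TSPAN8. Their rows were found by joining each Ensembl identifier to its GENCODE symbol, and they were chosen by their RNA levels in these 6 libraries, some for a lower and some for a higher level in the mutant, so these levels are described here and not tested. RNA-seq libraries from DLD1 parental cells were compared with libraries from DLD1 cells whose p85β, the product of PIK3R2, carries the K477A and R478A changes (p85β KR-AA mutant cells, called mutant cells here), with 3 libraries per condition. DLD1 is a colorectal cancer cell line with a PIK3CA helical domain mutation, which both conditions share, and the changes in p85β lie in its nuclear localization sequence. The study derived a pair of independent knock-in clones, but the labels number the libraries 1 to 3 and tie none to a clone or to a culture of its own. All p-values below therefore measure the spread between these libraries, which may be technical. In the source names of mutant replicates 2 and 3 the second change reads R479A and R480A, while the genotype reads R478A for each of the 3.

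Colonocytes, the absorptive cells that line the colon, carry a brush border of microvilli on the surface that faces the lumen. Villin and related proteins bundle the actin core of each microvillus, and cadherins such as CDHR5 link neighbouring microvilli at their tips. The membrane above holds tetraspanins and carcinoembryonic antigen family proteins. Galectin-4 binds glycans in the same membrane, and fatty acid binding proteins carry lipids in the cytosol below. CEACAM5, the carcinoembryonic antigen measured in the blood of patients with colorectal cancer, and CEACAM6 are anchored by a lipid, whereas CEACAM1 spans the membrane and carries inhibitory signalling motifs in its tail.

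Parental libraries held 20301932 to 20873475 counts and mutant libraries 20301396 to 26712816. Levels are given as CPM (counts relative to the TMM-scaled library size), which compares a gene between libraries, or as TPM (which also divides by gene length and is relative to the sum over genes), which compares genes within a library. The conditions differed across the transcriptome. Of 16059 genes that passed the filter on low counts, 46.2% were called at a fold of at least 3 and an adjusted p under 0.01 (edgeR quasi-likelihood test). Scaling by library totals in place of TMM raised the median log2 fold change of all tested genes by 0.92, from 0.32, and the share of called genes that were higher in mutant cells from 61.9% to 87.9%. The median also moved by -0.11 with DESeq2's size factors. PIK3R2 had 524, 169 and 313 counts in parental replicates 1 to 3 and 503, 476 and 125 in mutant replicates 1 to 3, counts that a readthrough gene across its locus makes uncertain. RPS4Y1, a Y-linked ribosomal protein gene named after its values were seen, had 0 counts in each parental library and 4656 to 6696 in mutant libraries. VIM and FN1, described with the mesenchymal markers, were likewise nearly absent from parental and abundant in mutant libraries. The origin of the mutant cultures was not tested, so each difference below is between these cultures, and the knock-in cannot be told apart from anything else that separates them.

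The promoters of the 3 CEACAM genes are printed because these genes differed most between the conditions and lie within a single cluster of related genes on chromosome 19. Each sequence covers 250 bases before to 50 bases after the RefSeq transcription start (GRCh38.p14) and reads 5′ to 3′ on the strand of the gene. Capitals mark the 7 runs of at least 5 bases that were identical in an alignment of the 3. LGALS4, a gene of the same chromosome with lower levels in mutant cells, is shown for contrast and has no capitals.
CEACAM5, plus strand, chr19:41708376-41708675: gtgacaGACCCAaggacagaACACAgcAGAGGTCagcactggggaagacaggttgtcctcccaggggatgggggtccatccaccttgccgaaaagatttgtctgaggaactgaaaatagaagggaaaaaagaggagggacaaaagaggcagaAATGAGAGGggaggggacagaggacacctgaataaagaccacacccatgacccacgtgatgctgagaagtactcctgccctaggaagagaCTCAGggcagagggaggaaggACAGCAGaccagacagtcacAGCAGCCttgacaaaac
CEACAM6, plus strand, chr19:41755280-41755579: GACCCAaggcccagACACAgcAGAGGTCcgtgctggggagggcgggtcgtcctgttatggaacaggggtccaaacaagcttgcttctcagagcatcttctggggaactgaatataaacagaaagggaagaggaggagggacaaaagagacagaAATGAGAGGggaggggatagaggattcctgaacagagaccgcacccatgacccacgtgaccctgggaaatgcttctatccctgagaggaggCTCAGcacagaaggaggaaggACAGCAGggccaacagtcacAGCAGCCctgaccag
CEACAM1, minus strand, chr19:42528432-42528731: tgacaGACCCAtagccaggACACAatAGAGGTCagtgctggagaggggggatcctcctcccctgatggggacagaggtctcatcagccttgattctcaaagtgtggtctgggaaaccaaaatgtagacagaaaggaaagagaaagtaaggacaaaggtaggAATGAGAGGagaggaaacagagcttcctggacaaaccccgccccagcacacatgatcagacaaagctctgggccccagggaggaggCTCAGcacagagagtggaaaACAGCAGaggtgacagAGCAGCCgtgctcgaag
LGALS4, minus strand, chr19:38812896-38813195: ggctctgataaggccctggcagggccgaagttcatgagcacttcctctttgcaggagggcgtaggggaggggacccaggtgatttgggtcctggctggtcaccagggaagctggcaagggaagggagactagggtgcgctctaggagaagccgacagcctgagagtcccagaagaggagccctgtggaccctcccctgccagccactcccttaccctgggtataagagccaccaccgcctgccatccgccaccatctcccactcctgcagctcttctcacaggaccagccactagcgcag
Of 313 alignment columns of the CEACAM promoters, 161 held the same base in all 3, and the longest shared run had 9 bases. The CEACAM5 and CEACAM6 promoters were 74.7% identical. CEACAM1 was less like them, with 65.6% identity to CEACAM5 and 68.2% to CEACAM6. The other 24 pairs of member promoters had identities of 41.6% to 49.9%. RefSeq promoters were matched for 7 of the 10 members, with a pair of entries for TSPAN8 and none for PHGR1, VIL1 and CDHR5.
Short motifs were searched on both strands of the 300 bases. TTTATG, a CDX-type motif, was found in the promoters of FABP1 and TSPAN8 and in 10.6% of all 35116 promoters. GTTAAT, an HNF1-type motif, was found in the same 2 genes and in 6.88% of all promoters. CAAAGTCC, an HNF4-type motif, was found in GPA33 and in 1.2% of all promoters. AGATAA, of the type that factors such as GATA6 recognize, was found in no member and in 10.3% of all promoters. Only exact letters were searched, so other forms of a motif were not covered, such as TGATAA, which the LGALS4 promoter above holds. The E-box CACGTG, chosen after the letters were read, was found in CEACAM5 and CEACAM6 but not in CEACAM1, and in 7.26% of all promoters. Each match is a description of these letters and was not tested for binding.

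Members were placed as 3 gained, 2 lost and 5 neither, by whether the groups stood apart in both CPM and TPM with a fold of at least 3 on the TMM scale. CEACAM1, CEACAM5 and CEACAM6 were low in every parental library and at 11.9 to 32.5 CPM in the mutant libraries. LGALS4 and PHGR1 were several times lower in mutant cells. VIL1, TSPAN8 and GPA33 were lower in CPM but overlapped in TPM, CDHR5 was near the limit of detection, and FABP1 had no count. On the TMM scale 3 members lay past a fold of 3 on the higher side, where 29.0% of all tested genes lay, and 3 on the lower side, where 17.7% lay. Groups did not overlap in 8 of the 9 members that passed the filter, against 83.5% of all tested genes. Mutant libraries lay above in 3 (47.0% of all tested genes) and below in 5 (36.5%). These counts follow from the choice of members and are given as a description, with no test. CEACAM1, CEACAM5, CEACAM6 and CDHR5 had at least 10 counts in all 3 libraries of the mutant group only, so they entered the fit through that group. In RNA from a whole culture, fewer cells that express a gene and less RNA per cell cannot be told apart.

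**Figure D1:**
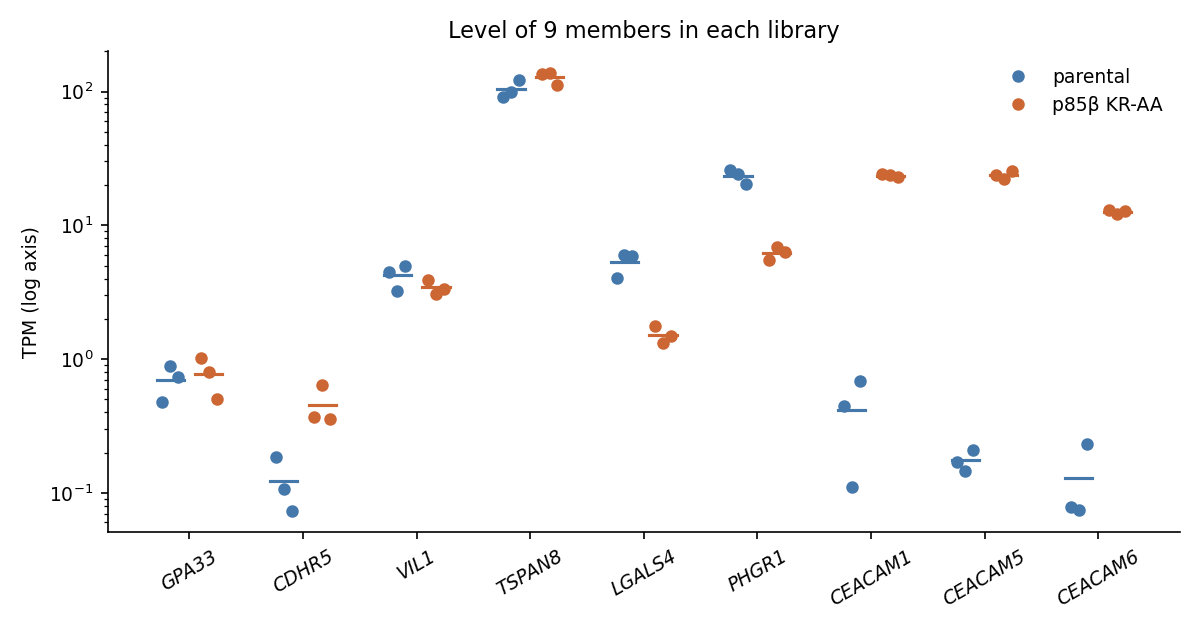
TPM (log axis) of 9 members in each library, with parental libraries in blue, mutant libraries in orange and a bar at the mean of each group (n = 3); FABP1, at 0 in every library, is left out. CEACAM1, CEACAM5 and CEACAM6 lay under 0.7 TPM in parental libraries and between 12.2 and 25.5 TPM in mutant libraries, while the groups overlapped for GPA33, VIL1 and TSPAN8.

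CEACAM5 (ENSG00000105388, GRCh37 chromosome 19, 42212504 to 42234353, plus strand) had the largest difference among the members. Its counts were 5.54, 5 and 7 in parental replicates 1 to 3 and 756, 531 and 616 in mutant replicates 1 to 3. The lowest mutant library stood far above the highest parental library, and the parental counts were only slightly over the floor of 3 counts, the smallest level treated as detectable. Its mean was 0.398 ± 0.034 CPM in parental cells and 20.5 ± 1.98 CPM in mutant cells (SD, n = 3 per group), a ratio of 51.5. The log2 fold change was 5.66 (SE 0.26), and it stayed between 5.58 and 5.74 with each library left out in turn.

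CEACAM6 (ENSG00000086548, chromosome 19, 42254885 to 42276116, plus strand) lies beside it on the same strand. It had 3, 3 and 9 counts in parental libraries and 479, 341 and 360 in mutant libraries. A total of 2 parental libraries were at the floor itself, so the size of the difference rests on very few parental counts. Mean CPM was 0.324 ± 0.200 in parental cells and 12.7 ± 0.70 in mutant cells (SD, n = 3 per group), a ratio of 39.1. The log2 fold change was 5.23 (SE 0.32) and reached 5.85 without parental replicate 3, the library with 9 counts, which is over 1.5 times the fold with it.

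CEACAM1 (ENSG00000079385, chromosome 19, 43011456 to 43065386, minus strand) had 23, 6 and 36 counts in parental libraries and 1191, 888 and 863 in mutant libraries. Parental replicate 2 was the lowest library and the spread within the parental group exceeded that of the other gained genes, yet the groups stood well apart. Mean CPM was 1.40 ± 0.90 in parental cells and 31.6 ± 0.80 in mutant cells (SD, n = 3 per group), a ratio of 22.7. Its log2 fold change was 4.47 (SE 0.33), with a range of 4.04 to 4.93 when single libraries were left out.

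Among all tested genes ordered by log2 fold change from the highest, CEACAM5 ranked 622, CEACAM6 681 and CEACAM1 841 of 16059. In mutant cells the levels per length of CEACAM5 (23.9 ± 1.65 TPM) and CEACAM1 (23.5 ± 0.64 TPM) did not differ beyond their spread, and CEACAM6 (12.7 ± 0.39 TPM; SD, n = 3 per group) lay below both in every library. Summed over the 3 genes the level was 0.694, 0.330 and 1.13 TPM in parental libraries and 60.9, 58.1 and 61.1 TPM in mutant libraries. Their share of the members' TPM was 0.248% to 0.728% in parental libraries and 27.8% to 33.01% in mutant libraries.

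Reads from such related genes could be assigned to the wrong member. In their annotated transcripts, 0 of the 100-base windows of any of the 3 occurred in another, and 1.63% of the 50-base windows of CEACAM1, 1.77% of those of CEACAM5 and 2.95% of those of CEACAM6 did. A readthrough gene, ENSG00000267881, covers CEACAM5 and CEACAM6 on their own strand and took 0 to 3.46 counts in parental and 12.7 to 29 counts in mutant libraries. LIPE-AS1, an antisense gene that overlaps CEACAM1, had 55 to 95 counts in parental and 29 to 29.1 in mutant libraries. Whether counting used strand is not given in the sources used here, so reads of CEACAM1 and LIPE-AS1 cannot be told apart by strand.

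Among the lost genes, PHGR1 (ENSG00000233041, chromosome 15, 40643234 to 40648635, plus strand) encodes a small protein rich in proline, histidine and glycine that is found in gut epithelium. It had 168, 162 and 133 counts in parental libraries and 34, 32 and 30 in mutant libraries. Every mutant library lay below every parental library, in CPM and in TPM. Mean CPM was 10.4 ± 1.92 in parental and 1.04 ± 0.10 in mutant cells (SD, n = 3 per group), 9.94-fold lower. The log2 fold change was -3.31 (SE 0.24). PHGR1 was not lost entirely, since its lowest mutant library was 10 times the floor of 3 counts.

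LGALS4 (ENSG00000171747, chromosome 19, 39292311 to 39303585, minus strand) encodes galectin-4, a lectin of the gut epithelium. Parental libraries held 67, 104 and 99 counts and mutant libraries 28, 16 and 18. The groups did not overlap, and parental replicate 1 was the closest to the mutant libraries. Mean CPM was 6.04 ± 1.56 in parental and 0.659 ± 0.103 in mutant cells (SD, n = 3 per group), 9.17-fold lower. Its log2 fold change was -3.17 (SE 0.29). By log2 fold change only 1.94% of all tested genes lay below LGALS4 and 1.53% below PHGR1.

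Both lost genes are short, and short genes as a class were lower in mutant cells. PHGR1 is 436 bases long and LGALS4 1121 bases. The median log2 fold change was -1.13 over the 415 tested genes of at most 600 bases and -1.12 over the 1762 genes of 600 to 1200 bases, against 1.86 over the 3545 genes longer than 4800 bases. With an offset for gene length in the fit, the log2 fold change was -1.86 for PHGR1 and -2.02 for LGALS4. With offsets for length and GC content it was -1.71 for PHGR1 and -1.43 for LGALS4, which then fell short of a fold of 3. CEACAM1 (3491 bases), CEACAM5 (2228) and CEACAM6 (2594) had log2 fold changes of 3.89, 5.77 and 4.83 with both offsets. The part that length and GC content play in these differences was not tested beyond the offsets.

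**Figure D2:**
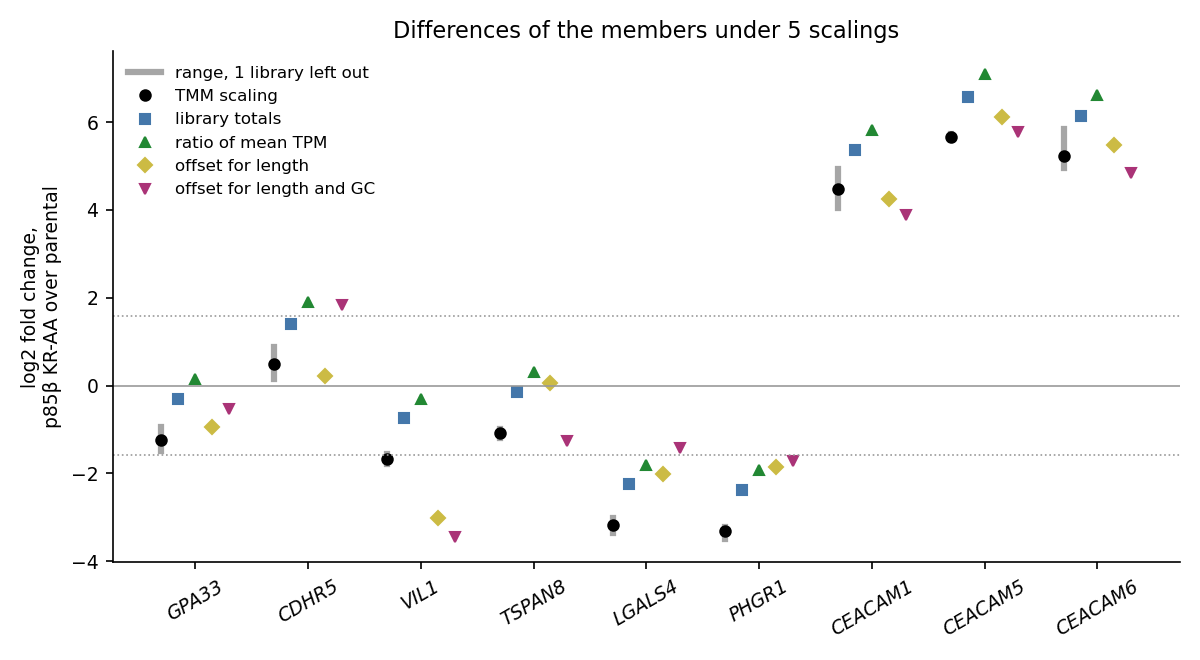
Log2 fold change (mutant over parental cells) of 9 members under TMM scaling, scaling by library totals, the ratio of mean TPM and offsets for gene length or for length and GC content; grey bars span the TMM values with each library left out and dotted lines mark a fold of 3. CEACAM1, CEACAM5 and CEACAM6 lay between 3.89 and 7.09 under all 5, LGALS4 and PHGR1 between -3.31 and -1.43, and GPA33 (in TPM) and TSPAN8 (in TPM and with the length offset) changed direction.

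VIL1 (ENSG00000127831, chromosome 2, 219283844 to 219318018, plus strand) encodes villin, which bundles the actin filaments of microvilli. Parental libraries held 428, 327 and 487 counts and mutant libraries 360, 216 and 236. In raw counts the groups overlapped, because mutant replicate 1 exceeded parental replicate 2, whereas in TMM-scaled CPM they did not. The means were 27.4 ± 3.23 CPM in parental and 8.65 ± 1.15 CPM in mutant cells (SD, n = 3 per group). The log2 fold change of -1.66 (SE 0.18) lay just past a fold of 3 and fell short of it without mutant replicate 2 (-1.56).
VIL1 was the longest member, with 6531 bases, and moved most with the scaling. Its log2 fold change was -0.75 with library totals and -0.30 as a ratio of mean TPM, where the groups overlapped. With the length offset it was -3.01 and with both offsets -3.44. Its direction was the same under all 5 scalings, and with either offset it was the largest decrease among the members. USP37, which overlaps VIL1 on the opposite strand, had 31.9 to 49.1 counts in parental and 286 to 489 counts in mutant libraries.

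TSPAN8 (ENSG00000127324, chromosome 12, 71518865 to 71835678, minus strand), a tetraspanin of the cell surface, was the member with the highest TPM in every library. It had 1556, 1783 and 2136 counts in parental libraries and 2247, 1736 and 1418 in mutant libraries. The raw counts of all 3 parental libraries lay within the range of the mutant ones. After TMM scaling the means were 121.7 ± 15.9 CPM in parental and 57.8 ± 5.33 CPM in mutant cells (SD, n = 3 per group), or -1.07 on the log2 scale (SE 0.14). In TPM the direction turned, with 90.3, 98.5 and 122.4 TPM in parental and 135.4, 138.4 and 111.9 TPM in mutant libraries, ranges that overlapped. The log2 fold change was also close to 0 with library totals (-0.15) and with the length offset (0.05), and -1.27 with offsets for length and GC content. LGR5, a crypt stem cell gene that overlaps TSPAN8 on the opposite strand, had 20 to 40 counts in parental and 179 to 289 in mutant libraries.

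GPA33 (ENSG00000143167, chromosome 1, 167022073 to 167135716, minus strand) encodes the A33 antigen, a surface glycoprotein of the immunoglobulin superfamily found in the intestine. It was weakly expressed in both conditions, with 18, 35 and 28 counts in parental and 37, 22 and 14 in mutant libraries. In CPM all mutant libraries lay below the parental ones, although mutant replicate 1 had the highest raw count of the 6. The means were 1.82 ± 0.68 and 0.762 ± 0.25 CPM (SD, n = 3 per group), or -1.23 on the log2 scale (SE 0.38). In TPM the difference had the opposite sign, with means of 0.70 and 0.777 TPM and overlapping groups.

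CDHR5 (ENSG00000099834, chromosome 11, 616577 to 626078, minus strand), the cadherin that joins microvilli at their tips, had 10, 6 and 4 counts in parental libraries and 19, 25 and 14 in mutant libraries. The raw counts stood apart and the CPM values overlapped. Its means were 0.449 ± 0.209 CPM and 0.633 ± 0.206 CPM (SD, n = 3 per group), or 0.49 on the log2 scale (SE 0.47), about as large as its error. It ranged from 0.14 without parental replicate 3 to 0.89 without parental replicate 1, and was 1.83 with offsets for length and GC content. With library totals it was 1.41 and as a ratio of mean TPM 1.89, and in TPM all mutant libraries (0.355 to 0.640 TPM) lay above the parental ones (0.0737 to 0.186 TPM). Whether CDHR5 stood apart thus depended on the scaling, at no more than 25 counts per library.

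FABP1 (ENSG00000163586, chromosome 2, 88422501 to 88427581, minus strand), the liver-type fatty acid binding protein of absorptive cells, had 0 counts in all 6 libraries. A count of 0 allows a level of up to 0.185 to 0.218 CPM in parental libraries and 0.0818 to 0.109 CPM in mutant libraries, limits that cover counting error only. FABP1 did not pass the filter and has no fold change.

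Ordered by TPM, parental cells expressed TSPAN8 (104 ± 16.7 TPM) above PHGR1 (23.5 ± 2.88), followed by LGALS4 (5.32 ± 1.10) and VIL1 (4.22 ± 0.90), whose ranges overlapped. GPA33, CEACAM1, CEACAM5, CEACAM6 and CDHR5 followed at means of 0.122 to 0.70 TPM with overlapping ranges. GPA33 was above CEACAM1 within each of the 3 libraries, and the order of the other neighbours changed between libraries. In mutant cells TSPAN8 (129 ± 14.5 TPM) was followed by CEACAM5, CEACAM1 and CEACAM6, and then by PHGR1 (6.22 ± 0.68), VIL1 (3.43 ± 0.41), LGALS4 (1.52 ± 0.22), GPA33 (0.777 ± 0.259) and CDHR5 (0.454 ± 0.161; SD, n = 3 per group). The ranges of GPA33 and CDHR5 overlapped, although GPA33 was higher within each library, and the order of CEACAM5 and CEACAM1 changed between libraries. TSPAN8 alone made up 71.5% to 78.6% of the members' TPM in parental and 60.5% to 66.2% in mutant libraries. The members' summed level was 126 to 156 TPM in parental and 185 to 209 TPM in mutant libraries, while in CPM the sum was higher in parental libraries (151 to 181 against 130 to 141).

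Genes outside the choice of members were then examined in lists of the same programme. Of 89 further genes of brush border structure, brush border enzymes, absorption, lipid handling and the colon surface, 42 passed the filter and 16 had no count in any library. Of the 42, 13 rose and 13 fell (31.0% in each direction, against 28.6% of all tested genes that rose and 17.6% that fell; edgeR quasi-likelihood test). Their median log2 fold change was -0.28, beside 0.32 over all tested genes. Scaling by library totals gave 16 that rose and 4 that fell, and offsets for length and GC content gave 9 and 3.

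Genes of brush border structure, the group of VIL1 and CDHR5, had 15 tested members. Of these 6 fell (40.0%) and 2 rose (13.3%), against 17.6% and 28.6% of all tested genes. The median log2 fold change was -1.27. VILL, a villin-like protein, fell from 181 ± 26.3 to 22.6 ± 1.46 CPM (SD, n = 3 per group). On the log2 scale this was -2.998 (SE 0.15, edgeR adjusted p = 5.96e-09). ESPN, the actin-bundling espin, fell by 2.84 on the log2 scale (SE 0.15, adjusted p = 6.82e-09, edgeR) and EPS8L1 by 2.62. PLS1, the microvillar plastin that bundles actin beside villin, rose from 3.21 ± 0.26 to 20.4 ± 7.05 CPM (SD, n = 3 per group; log2 fold change 2.67, SE 0.28, adjusted p = 1.51e-06, edgeR). EPS8, an actin capping protein at microvillar tips, rose with a log2 fold change of 2.05. EZR, ezrin, which links actin to the membrane, was the most abundant gene not called, with a log2 fold change of -1.19. Structural genes of the microvillus thus differed in both directions. Library totals turned the balance, with 3 that fell and 5 that rose, and with offsets for length and GC content 2 fell and 1 rose.

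Absorption and ion transport genes had a positive median log2 fold change of 1.83. Of 14 tested genes 9 rose (64.3%) and 2 fell (14.3%), against 28.6% and 17.6% of all tested genes. The membrane-bound carbonic anhydrase CA12 had 18, 18 and 39 counts in parental and 2415, 1897 and 1744 in mutant libraries. Its log2 fold change was 5.29 (SE 0.23, adjusted p = 2.91e-09, edgeR). SLC26A2, a sulfate transporter, rose by a log2 fold change of 4.02 and ABCG2, an efflux pump, by 3.81. CA2, the cytosolic carbonic anhydrase, fell by 1.61 on the log2 scale and SLC51B, a subunit of the bile acid exporter, by 1.82. CA12 (6098 bases), SLC26A2 (8080) and ABCG2 (4206) are longer than CA2 (1562) and SLC51B (924). Over all tested genes longer than 4800 bases the median log2 fold change was 1.86. The part of gene length in this list was not tested beyond the offsets. SCNN1A, the alpha subunit of the epithelial sodium channel, was the most abundant gene not called (-0.35). The number that rose was also 9 with library totals, and was 5 with the length offset and 6 with both offsets. With at least 10 counts in every library 5 rose and 1 fell. SLC26A2 (15, 7 and 10 parental counts) and ABCG2 (13, 4 and 17) were among the genes that entered the fit through the mutant group. The number that fell was 0 with library totals and with the length offset, and 1 with both offsets and without parental replicate 2, parental replicate 3 or mutant replicate 3.

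The other lists had few tested genes, to be read beside the 28.6% of all tested genes that rose and the 17.6% that fell. Of 5 tested brush border enzymes 1 rose and 1 fell, the latter GGT1, gamma-glutamyltransferase, with a log2 fold change of -1.59, just past a fold of 3. That call was lost with library totals, with both offsets, and when parental replicate 1 or 2 or mutant replicate 1 or 2 was left out. The higher call was lost without each single library other than parental replicate 2, and with DESeq2. CES2, a carboxylesterase, was the most abundant not called (-0.19). Of 4 tested genes on the lipid list, FABP6, the ileal bile acid binding relative of FABP1, had a log2 fold change of -2.49. DGAT1, which completes triglyceride synthesis, had one of -1.89. CRIP1, which that list also holds though its part in lipid handling was not checked, was not called (-1.33). Of 4 tested genes on the colon surface list, MISP, whose place at the surface was not checked, fell by 2.76 on the log2 scale. FXYD3, a regulator of the sodium pump, fell by 1.91, and TSPAN1 was not called (-1.32). TM4SF20 had 0 counts in each parental library and 125, 116 and 72 in mutant libraries, a mutant mean at least 15.4-fold above the 3-count floor of any parental library.

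**Figure D3:**
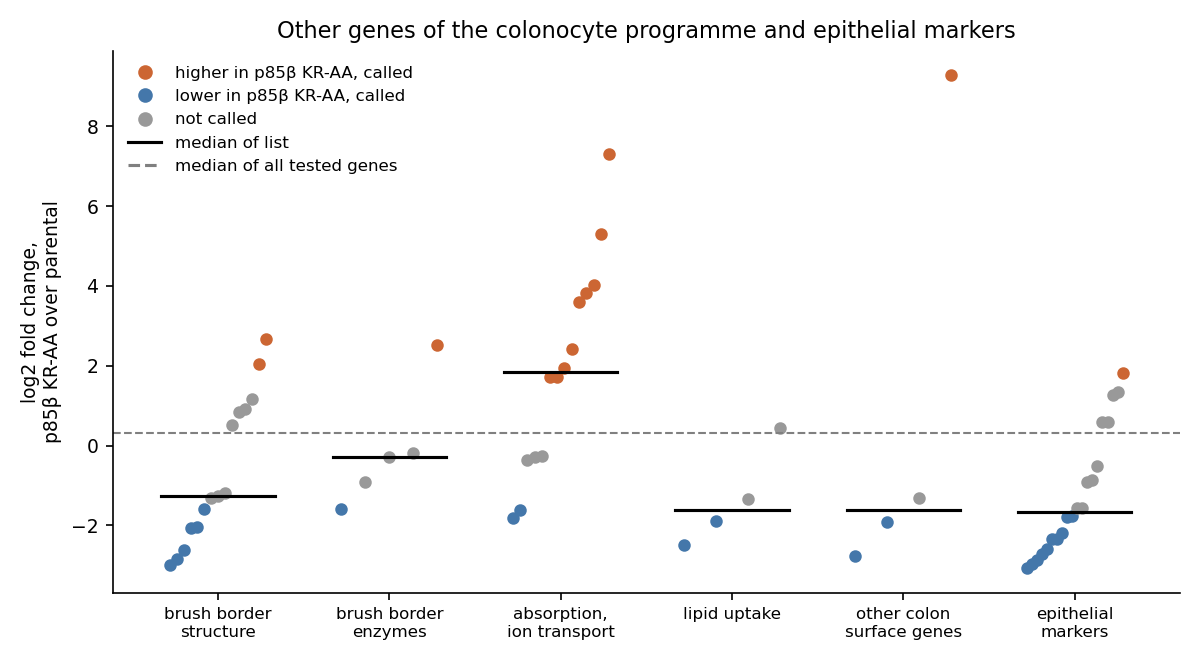
Log2 fold change under TMM scaling of each tested gene of 5 lists of the colonocyte programme and of the epithelial markers, with called genes in orange (higher in mutant cells) or blue (lower), solid bars at list medians and a dashed line at the median of all tested genes (0.32). Absorption and ion transport genes sat mostly above 0, and the medians of brush border structure (-1.27) and of the epithelial markers (-1.66) lay below it; with offsets for length and GC content 1 epithelial marker was called lower.

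Relatives of the members were compared gene by gene, in small families. Their counts stand beside the 28.6% of all tested genes that rose and the 17.6% that fell. Of 9 other CEACAM family genes, only CEACAM19 passed the filter, with 2.16 ± 0.82 CPM in parental and 1.27 ± 0.45 CPM in mutant cells (SD, n = 3 per group; log2 fold change -0.76, adjusted p = 0.0665, edgeR), and 3 had no count in any library. The summed level of these 9 was 1.46 to 3.59 CPM in parental and 1.32 to 1.85 CPM in mutant libraries. Of 4 tested galectins other than LGALS4, LGALS8 rose (log2 fold change 2.47, adjusted p = 4.57e-07, edgeR). LGALS3, the galectin with the highest mean log2 CPM over the 6 libraries, was not called at 0.95. Of 7 tested relatives of VIL1, 3 fell, namely CAPG (-3.10), VILL and FLII (-1.77), SVIL (2.19) and AVIL (2.88, named after its values were seen) rose, and GSN, gelsolin, was not called (-1.04). Both tested relatives of FABP1 fell, with log2 fold changes of -1.90 for FABP5 and -2.49 for FABP6, and neither was called with library totals or with the offsets. CDHR2, the partner of CDHR5 in the links between microvilli, had 0 to 2 counts in parental and 2 to 7 in mutant libraries and was not tested. CDHR3, the single tested relative of CDHR5 and named after its values were seen, had 5, 2 and 12 counts in parental and 56, 42 and 33 in mutant libraries and rose (log2 fold change 1.73, adjusted p = 0.00331, edgeR). It was not called with either offset or without mutant replicate 1.

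Tetraspanins, the family of TSPAN8, had 23 tested genes besides it. Of these 6 fell (26.1%) and 3 rose (13.0%), against 17.6% and 28.6% of all tested genes. Log2 fold changes were -2.80 for CD82, -2.30 for TSPAN17 and -2.10 for CD63. TSPAN7 rose from 0.951 ± 0.573 to 41.8 ± 2.16 CPM (SD, n = 3 per group; log2 fold change 5.42, SE 0.31, adjusted p = 9.91e-09, edgeR), TSPAN3 by a log2 fold change of 1.96 and TSPAN6 by 1.71. CD151, the most abundant not called, had -1.41. With library totals 7 rose and 1 fell.

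Defining epithelial markers were present in both conditions. All 20 were over 1 CPM in every library, and their summed level was 63045 to 85737 CPM in parental and 10529 to 12227 CPM in mutant libraries. Of these 20 genes, 10 fell and 1 rose, where 17.6% of all tested genes fell and 28.6% rose. Among those that fell were the keratins KRT8 (-3.07), KRT18 (-2.86) and KRT19 (-2.72) and the protease inhibitor SPINT2 (-2.58). Library totals gave 5 lower and 3 higher, and offsets for length and GC content 1 lower and 1 higher. The single riser was CDH1, E-cadherin, with 1594, 825 and 2041 counts in parental and 12231, 9495 and 10074 in mutant libraries, and it was not called without parental replicate 2. The intestinal factor CDX2 fell by 1.98 on the log2 scale. HNF4A (-0.14) and GATA6 (0.87) were not called.
Mesenchymal markers were higher in mutant libraries. Of 16 markers 12 were tested and 9 rose (75.0% of the 12, against 28.6% of all tested genes). With at least 10 counts in every library 3 rose. None of the 16 was at 0 in all libraries, and 4 were over 1 CPM in every parental library and 10 in every mutant library. The summed level was 119 to 138 CPM in parental and 6540 to 7477 CPM in mutant libraries. VIM, vimentin, had 9, 13 and 14 counts in parental and 67013, 48628 and 49227 in mutant libraries. Only in the mutant group did all 3 libraries hold at least 10 counts of VIM, so it entered the fit through that group. FN1, fibronectin, had 49 to 74 counts in parental and 132172 to 181723 in mutant libraries. Of 10 blood markers 2 were tested and neither was called, and CD14 and HBA1 had the highest mean log2 CPM. Over 1 CPM were 1 marker in every parental library and 2 in every mutant library. Among the rest PTPRC had at most 3 counts in any library, and MS4A1 and TYROBP had none. The 10 blood markers together had 5.18 to 12.7 CPM in parental and 6.02 to 7.07 CPM in mutant libraries. The part of these epithelial and mesenchymal differences in the members' values was not tested.

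**Figure D4:**
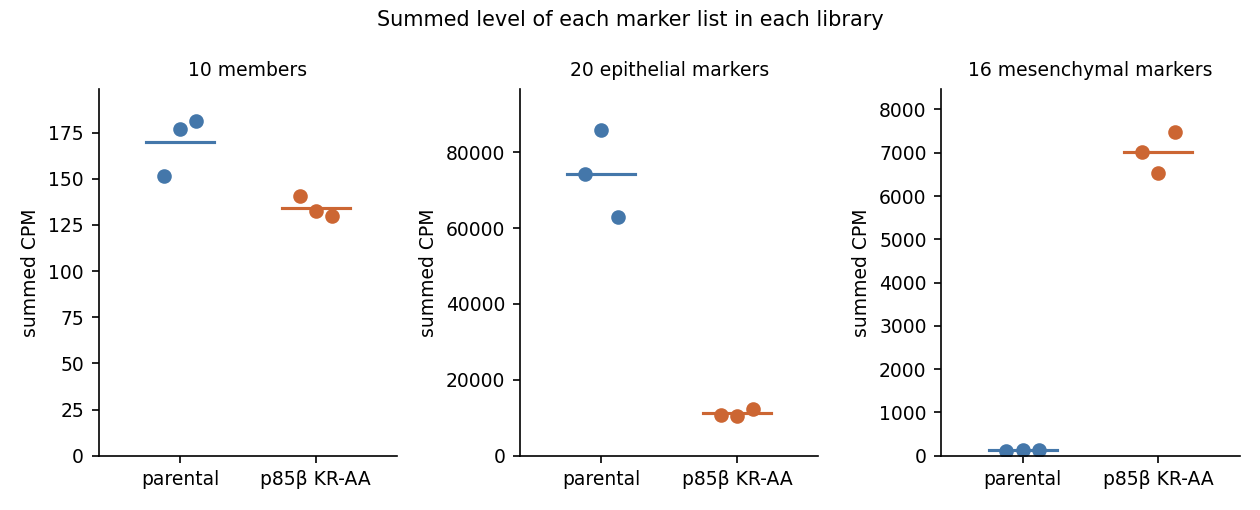
Summed CPM (TMM-scaled, axes from 0) of the 10 members, 20 epithelial markers and 16 mesenchymal markers in each library, with a bar at the mean of each group (n = 3). Members summed to 151 to 181 CPM in parental and 130 to 141 CPM in mutant libraries, an order that reverses in TPM, while the epithelial sum was lower and the mesenchymal sum higher in every mutant library.

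Protein-coding genes whose pattern over the 6 libraries was most like each member were found by the Euclidean distance between centred log2 CPM values, where 0 is an identical pattern. CEACAM5 was closest to FKBP10 (distance 0.195) and ZSCAN18 (0.206), CEACAM6 to ABCC2 (0.284) and ARHGEF6 (0.377), and CEACAM1 to MAP1A (0.456) and TNRC6A (0.536). ZSCAN18 had a log2 fold change of 9.50 in the edgeR fit, against 5.66 for CEACAM5. A prior count of 2 draws low counts together, so a small distance does not mean an equal fold change. No CEACAM gene was among the 2 closest to another. PHGR1 was closest to GALK1 (0.195) and EXOSC5 (0.205), and LGALS4 to H1-10 (0.300) and GFER (0.330). VIL1 was closest to NMB (0.119) and PIGQ (0.267), TSPAN8 to MED11 (0.133) and SLIRP (0.148), GPA33 to VRK1 (0.395) and TMA16 (0.398), and CDHR5 to CORO2B (0.385) and HYPK (0.507). The 6 points share the condition and the scaling of their libraries, and the distances are a description.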

How the data were processed

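RNA was extracted with TRIzol and sequenced as paired-end Illumina libraries, and reads were trimmed with SeqPrep and Sickle. The submitters' processing notes name HISAT2 2.1.0, RSEM 1.3.1, DESeq2 1.24.0 and hg18, without roles. The authors deposited, for each Ensembl gene, an estimated count that is not normalized, and a gene length in another column. Symbols and GRCh37 positions came from GENCODE release 44 (56745 of 58884 genes matched), so positions are those of the annotation and not of the build behind the counts.

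Estimated counts were rounded and compared with edgeR 4.0.16 in R 4.3.3 (filterByExpr, TMM, quasi-likelihood F test, Benjamini-Hochberg adjustment over 16059 genes, no covariate), after the code was tested on simulated data. Genes were called at a fold of at least 3 and an adjusted p under 0.01. A CPM value of 3 counts lay between 0.0818 and 0.218 across libraries. TPM was computed from the deposited lengths. Members have no p-value. The members and lists were chosen with earlier results of these data known. Of 235 list symbols 234 were matched. Replicates of a condition differed by 4.31 to 39.3 times sampling noise (chi-square per degree of freedom), so none was a copy.

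Named genes are the members, up to 3 called genes per direction and list with the largest change and a mean log2 CPM of 1 or more, the most abundant gene not called, up to 4 of the highest and those at 0 in marker lists, and the 2 genes most like each member (prior count 2). Others are named as exceptions, and 1 gene of the rule is not reported here. Offsets for length and GC content were splines with 5 degrees of freedom (MASS) per library. DESeq2 1.42.0, library totals, other filters and thresholds, the replicate block and single libraries left out were the other alternatives. Promoters were aligned with MAFFT, and figures drawn with matplotlib 3.10.9 in Python 3.11.15.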

Additional observations from a re-analysis of the deposited data

How the results depend on the processing

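CEACAM1, CEACAM5 and CEACAM6 stayed higher and LGALS4, PHGR1 and VIL1 lower under each alternative that could be fitted. GPA33 turned in TPM and TSPAN8 in TPM and with the length offset. CEACAM1, CEACAM5, CEACAM6 and CDHR5 could not be fitted with at least 10 counts in every library. Over all genes, 4597 were higher and 2825 lower. With library totals these were 7052 and 973, with offsets for length and GC content 2831 and 1042, and tested against a fold of 3, 2974 and 1779. At least 10 counts in every library left 2898 higher, and a fold of 2 with an adjusted p under 0.05 gave 4289 lower. With single libraries left out, 4404 to 4783 were higher and 2774 to 2992 lower. Of the programme lists, 13 were higher and 13 lower. With the length offset these were 8 and 7, against a fold of 3, 8 and 7, with at least 10 counts 7 higher, with library totals 4 lower and with both offsets 3 lower. Of the epithelial markers, 1 was higher and 10 lower. Library totals gave 3 and 5, both offsets left 1 lower, the length offset and the test against 3 gave 0 higher and a fold of 2 gave 3. With single libraries left out 0 to 2 were higher, 0 without parental replicate 2 and 2 without parental replicate 3. The cause of these shifts was not tested.

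A fit with replicate block gave 4626 higher and 2827 lower genes, and no call on the lists above changed in number. Same-numbered libraries correlated at -0.14, 0.12 and -0.04 in their deviations from the group means. Pairs with different numbers reached 0.23 (parental 1 with mutant 3) and -0.18 (parental 2 with mutant 3). With 3 libraries per group these values cannot show whether same-numbered libraries are paired. Prior degrees of freedom were infinite with the block and without a filter (8.32 with the filter and no block), so no p of a single gene is given from those fits.

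Depth limits GPA33 and CDHR5, with at most 37 and 25 counts in any library, and the parental levels of CEACAM5 and CEACAM6, which rest on at most 9 counts per library. Small parental counts make the size of a gain less certain than its direction.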

Other observations

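Markers of other cell types of the crypt differed by gene, where 28.6% of all tested genes rose and 17.6% fell. Of 5 tested crypt base genes LGR5 rose with a log2 fold change of 2.05 and PROM1 with 2.64, ASCL2, a stem cell transcription factor, fell by 3.64 on the log2 scale, and RGMB was not called at 0.97 (edgeR quasi-likelihood test, adjusted p under the threshold for the 3 called). ASCL2 had 2915, 4275 and 3594 counts in parental libraries and 817, 526 and 483 in mutant libraries. The overlap of LGR5 with TSPAN8 on the opposite strand makes the low LGR5 counts uncertain.

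Enteroendocrine markers were mostly absent. CHGA, chromogranin A, had 0 counts in each parental library and 130, 95 and 84 in mutant libraries, a mutant mean at least 15.1-fold above the 3-count floor of any parental library. SCG5 had similar counts in both conditions (74 to 106 and 108 to 139) and was not called at -0.70. GCG and SCGN had no count, and CHGB and NEUROD1 had at most 2 counts in any library. The tuft cell marker DCLK1 had 0 or 1 counts in parental and 51 to 84 in mutant libraries, a mutant mean at least 10.04-fold above that floor, while POU2F3, the tuft cell master factor, had at most 7 counts in any library and the Paneth cell defensins DEFA5 and DEFA6 had none. A separate test of whether these cell types were present was not made.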
